A study of Mus musculus with 4 samples.

Results

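The 10 genes described here belong to the BCL2 family, the proteins that decide whether a cell permeabilises its mitochondria and dies: Bcl2, Bcl2l1, Mcl1, Bak1, Bcl2l11, Bbc3, Bid, Bad, Bmf and Pmaip1. They were chosen by name, as every probe set annotated to exactly 1 of these symbols, which gave 1 probe set for each of the 10 among the 19938 genes of the array. Of the 10, 9 were bright enough to be tested, and none of the 9 passed the threshold between Ovol2 knockout and control end buds.

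RNA came from terminal end buds, the club-shaped growing tips of the pubertal mammary duct, and each of the 4 arrays held RNA pooled from several female C57/BL6 mice. The 2 Ovol2 KO arrays held 3 mice each, with 1 floxed and 1 null Ovol2 allele and a K14-Cre transgene (Ovol2flox/-;K14-Cre). The 2 control arrays held 2 mice each, and their sample labels give Ovol2flox/+ while the protocol allows Ovol2flox/+ with or without K14-Cre. All mice therefore carried a floxed allele, control pools may have held Cre in some animals, and KO mice lacked 1 Ovol2 copy in every cell. The keratin 14 promoter is active in basal epithelium and skin, and which end bud cells had lost the floxed allele was not measured. Age is stated as 4.5 weeks in the sample labels and as 24 to 25 days in the series design. The arrays are called biological replicates. The p-values rest on the spread between pools combined with that of other genes of like signal, and not on the spread between single mice.

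The end bud consists of an outer layer of cap cells and an inner mass of body cells, and a lumen forms as the innermost body cells die. BCL2, BCL-XL (the product of Bcl2l1) and MCL1 hold back that death by binding the family's pro-apoptotic proteins. BAK1 forms pores in the mitochondrial outer membrane once released, and BH3-only proteins such as BIM (Bcl2l11), PUMA (Bbc3), BID, BAD, BMF and NOXA (Pmaip1) trigger the release. In mice, loss of BIM delays the clearing of the end bud lumen, and BIM and BMF are the members best known for the death of mammary cells that lose contact with matrix. Much of the control of these proteins is by cleavage, phosphorylation and turnover, which an RNA array does not read.

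The targeted gene was read first. Ovol2 had log2 values of 7.85 and 7.73 in KO pools, against 8.05 and 8.31 in control pools, where log2 values throughout are log2(signal + 16) after quantile normalization. The KO arrays lay below both control arrays, by 0.39 ± 0.16 on the log2 scale (SE, n = 2 arrays per group), short of the threshold (limma, adjusted p = 0.17). The probe set lay close to the filter level of 7.97, and where its probes lie relative to the deleted part is not known here, so the value does not measure the deletion. Epithelial markers were bright in every pool. Among 8 luminal markers 1 passed, Pgr, which rose by 0.36 (0.23 without control replicate 1, where it did not pass). Among 8 basal and cap cell markers 3 rose and 1, Trp63, fell (-0.36), with Igfbp5 (0.84) and Myh11 (0.74) the farthest from 0. Of the 8 differences 5 were positive and 3 negative. Krt14 (0.43), Cdh3 (-0.23) and Krt5 (-0.02) did not pass, so the list had no single direction.

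Markers of neighbouring cells differed between the pools. Of 9 tested fibroblast markers 9 rose, with Lum higher by 1.94 and Pdgfra by 1.62 on the log2 scale, and their summed linear signal was 24425 and 29547 in KO pools, against 10588 and 11391 in control pools. Of 7 endothelial markers 5 rose, led by Emcn (1.02) and Kdr (0.88), and their summed signal was 4787 and 5979 in KO pools, against 2758 and 3493 in control pools. Of 5 tested adipocyte markers 4 rose, led by Lpl (0.98) and Cd36 (0.64), while Plin1 (-0.08) did not pass. Their summed signal over all 8 was 5166 and 5863 in KO pools, against 3584 and 3823 in control pools. Adipoq, Lep and Cidec lay under the filter, with small differences of 0.11, 0.02 and -0.02, so the rise did not extend to every adipocyte marker. Of 2 tested B lymphocyte markers Cd79b fell by 1.91, and over the 5 on the array the summed signal was 611 and 605 in KO pools, against 1736 and 1294 in control pools. Of 2 tested T lymphocyte markers Ccr7 fell by 0.84, and of 4 tested macrophage markers 1, Lyz2, fell, by 0.96. Csf1r (0.24), Cd68 (-0.02) and Itgam (-0.07) did not pass. Over all 7 macrophage markers the summed signal overlapped, at 2811 and 2034 in KO pools, against 2655 and 2998 in control pools. Under a robust variance prior Lyz2 did not pass (limma, adjusted p = 0.402). Kdr did not pass without control replicate 1 (0.76), and Lyz2 did not pass without control replicate 2 (-0.89). Leaving out KO replicate 2 brought Lyz2 to -0.47. No marker was listed at 0, and the part of these cells in any value below was not tested. In pooled tissue, fewer cells of a type and less RNA per cell cannot be told apart.

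Across the array 1285 of 11963 tested genes passed an adjusted p of 0.05 (10.7%), 753 of them higher (6.29%) and 532 lower (4.45%). Against that background, 0 of the 9 tested BCL2 family members passed in either direction (limma, adjusted p from 0.0605 to 0.889). At an unadjusted p under 0.05 there were 3 of 9, Mcl1, Bak1 and Bbc3, against 25.5% of all tested genes. The KO arrays lay above both control arrays for 3 members (26.4% of all tested genes), below both for 3 (29.9%) and overlapped them for 3. The count without overlap, 6 of 9, stands beside 56.3% of all tested genes and, read against it, sets nothing apart about the members. With 2 arrays per group an exact two-sided permutation test cannot give a p below 0.333, and the p-values given come from the fit that shares variance across genes.

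Among the anti-apoptotic members, Mcl1 (probe set 10494306) showed the largest difference. It had log2 values of 11.59 and 11.80 in KO pools, against 11.42 and 11.49 in control pools, from deposited linear signals of 3106 and 3518 in KO pools and 2704 and 2873 in control pools. Both KO arrays lay above both control arrays, and the KO arrays lay 0.21 apart on the log2 scale, against 0.07 for the controls. The log2 difference was 0.24 ± 0.07 (SE, n = 2 per group, 95% CI 0.08 to 0.39), a 1.18-fold higher signal that did not pass (limma, adjusted p = 0.0605). MCL1 protein is short-lived, and in mice the gene is required for the survival of mammary epithelium.

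Bcl2l1 (probe set 10488655), which encodes the survival protein BCL-XL, read 9.82 and 9.79 in KO pools, against 9.65 and 9.71 in control pools. The KO pair lay above the control pair without overlap, and the log2 difference of 0.12 ± 0.07 (95% CI -0.04 to 0.29) did not pass (limma, adjusted p = 0.339). Whether the probe set separates the long, anti-apoptotic transcript from the short, pro-apoptotic splice form is not known here. Bcl2 (probe set 10357043) read 10.49 and 10.55 in KO pools, against 10.45 and 10.63 in control pools. The KO arrays fell between the 2 control arrays, and the log2 difference of -0.02 ± 0.07 (95% CI -0.19 to 0.14) was smaller than the distance between the controls (limma, adjusted p = 0.873). Its sign turned without KO replicate 1 (0.0067) and without control replicate 2 (0.065). Bcl2 is also abundant in resting lymphocytes, whose B-cell markers had lower signals in KO pools as given above.

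**Figure D1:**
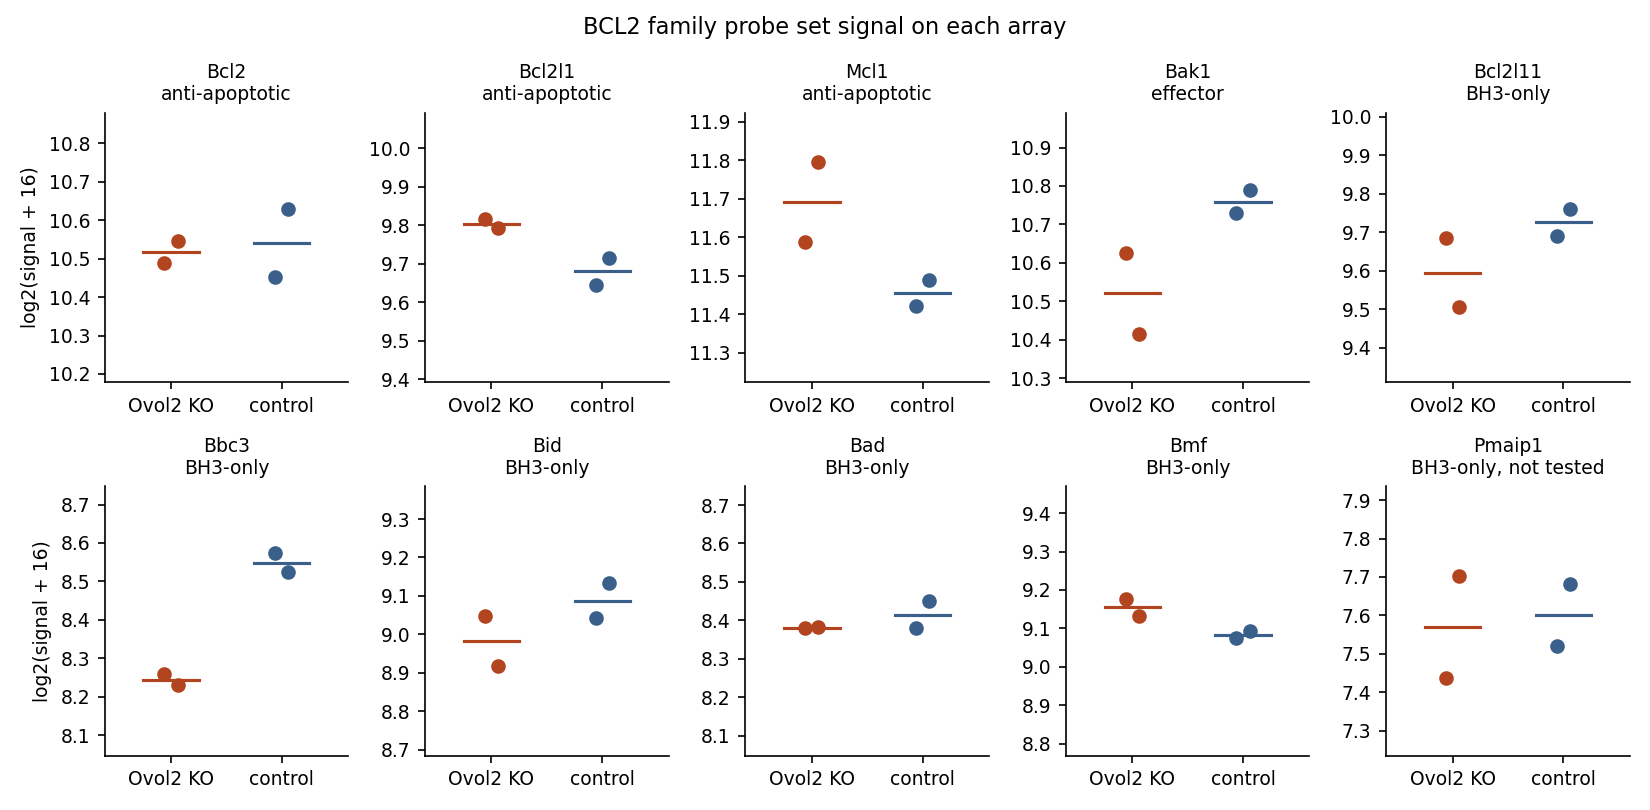
Signal of the 10 BCL2 family probe sets on each array, as log2(signal + 16) after quantile normalization, with Ovol2 KO pools in red on the left and control pools in blue on the right of each panel. Points are arrays, lines are group means (n = 2), and every vertical axis spans the same distance. The groups separate without overlap upward for Bcl2l1, Mcl1 and Bmf and downward for Bak1, Bcl2l11 and Bbc3, and overlap for Bcl2, Bid, Bad and Pmaip1.

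Bak1 (probe set 10449303), the pore-forming effector, was lower in the KO pools by about as much as Mcl1 was higher. It read 10.63 and 10.42 in KO pools, against 10.73 and 10.79 in control pools, with linear signals of 1604 and 1327 in KO pools and 1650 and 1772 in control pools. Both KO arrays lay below both control arrays. The difference of -0.24 ± 0.08 on the log2 scale (95% CI -0.41 to -0.07) missed the threshold (limma, adjusted p = 0.0777).

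Of the 6 BH3-only genes, 5 were tested, 0 passed, and 4 of the 5 had a negative difference, with a median of -0.11 against -0.02 over all tested genes. Bbc3 (probe set 10550290), whose product PUMA is a p53-induced trigger of apoptosis, had the largest difference of the 10 members. It read 8.26 and 8.23 in KO pools, against 8.57 and 8.52 in control pools, with linear signals of 291 and 294 in KO pools and 361 and 343 in control pools. The pairs were tight and did not overlap, yet 12.3% of all tested genes differed by more. The log2 difference was -0.30 ± 0.12 (95% CI -0.58 to -0.03), a signal 1.23-fold lower in KO pools that did not pass (limma, adjusted p = 0.155). The KO arrays lay 0.03 apart and the control arrays 0.05, less than the SE, which the model takes partly from genes of like signal.

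Bcl2l11 (probe set 10475866), the BIM gene of lumen clearing, read 9.68 and 9.51 in KO pools, against 9.69 and 9.76 in control pools. The higher KO array differed from the lower control array by less than either pair differed within itself. The log2 difference was -0.13 ± 0.09 (95% CI -0.32 to 0.06, adjusted p = 0.389 by limma). Without KO replicate 1 it was -0.22, and without KO replicate 2 it was -0.04.

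Bmf (probe set 10486112), which senses loss of attachment, read 9.18 and 9.13 in KO pools, against 9.07 and 9.09 in control pools. The KO pair was higher without overlap, by 0.07 ± 0.09 (95% CI -0.13 to 0.27, adjusted p = 0.669 by limma). Bid (probe set 10547531), which links death receptors to the mitochondria once cleaved, read 9.05 and 8.92 in KO pools, against 9.04 and 9.13 in control pools. The groups overlapped, and the log2 difference was -0.11 ± 0.10 (95% CI -0.33 to 0.12, adjusted p = 0.557 by limma). It was -0.17 without KO replicate 1, -0.04 without KO replicate 2 and -0.06 without control replicate 2, and passed in none of these. Bad (probe set 10461017), which survival kinases hold inactive by phosphorylation, read 8.38 and 8.38 in KO pools, against 8.38 and 8.45 in control pools. The log2 difference was -0.03 ± 0.12 (95% CI -0.31 to 0.24, adjusted p = 0.889 by limma), and the deposited values (0.010) and a fit without control replicate 2 (0.00058) gave it the opposite sign.

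Pmaip1 (probe set 10456357), encoding NOXA, which binds MCL1, was the only member under the filter. It read 7.44 and 7.70 in KO pools, against 7.52 and 7.68 in control pools, with linear signals of 153 and 199 in KO pools and 174 and 180 in control pools. The control values lay between the KO values. In a fit with no filter the log2 difference was -0.03 ± 0.14 (95% CI -0.34 to 0.28, adjusted p = 0.933 by limma). No detection call was used, so its height above background is not known here.

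The 95% intervals of all 9 tested members lay within 1.5-fold either way, from 0.668-fold for the lower bound of Bbc3 to 1.31-fold for the upper bound of Mcl1. The Bbc3 bound of -0.58 on the log2 scale comes close to that limit. These intervals are per gene and on the log2(signal + 16) scale, which understates the change of dim genes.

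**Figure D2:**
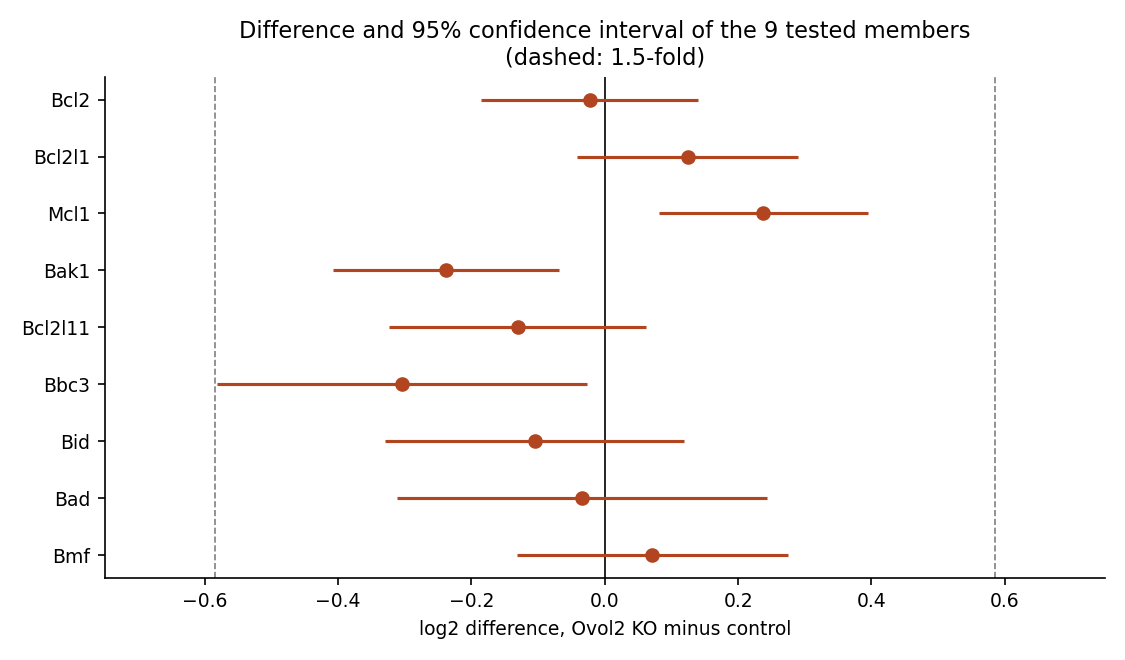
Log2 difference, Ovol2 KO minus control, of the 9 tested members (points) with 95% confidence intervals from limma (lines), n = 2 arrays per group. Dashed lines mark 1.5-fold. The differences run from -0.30 for Bbc3 to 0.24 for Mcl1, and the intervals of Mcl1, Bak1 and Bbc3 exclude 0 before adjustment over all genes.

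The sizes for Mcl1 and Bak1 rested on KO replicate 2. Without KO replicate 1, Mcl1 was 0.34 (adjusted p = 7.04e-05) and Bak1 -0.34 (adjusted p = 0.000406), and both passed in limma. Without KO replicate 2, Mcl1 was 0.13 (adjusted p = 0.31) and Bak1 -0.13 (adjusted p = 0.37), and neither did. Mcl1 passed as well on the deposited values with no further normalization (limma, adjusted p = 0.00718), and both passed under a robust variance prior (limma, adjusted p = 0.04 and 0.0476). Fibroblast markers were also highest in KO replicate 2, with the summed signal of 29547 given above. Whether their signal bears on Mcl1 or Bak1 was not tested. Of the 9 tested members, 5 lay farther from the control mean in KO replicate 2 than in KO replicate 1. Bbc3 held its size, from -0.33 to -0.28 with any 1 array left out, and passed in none of those fits.

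**Figure D3:**
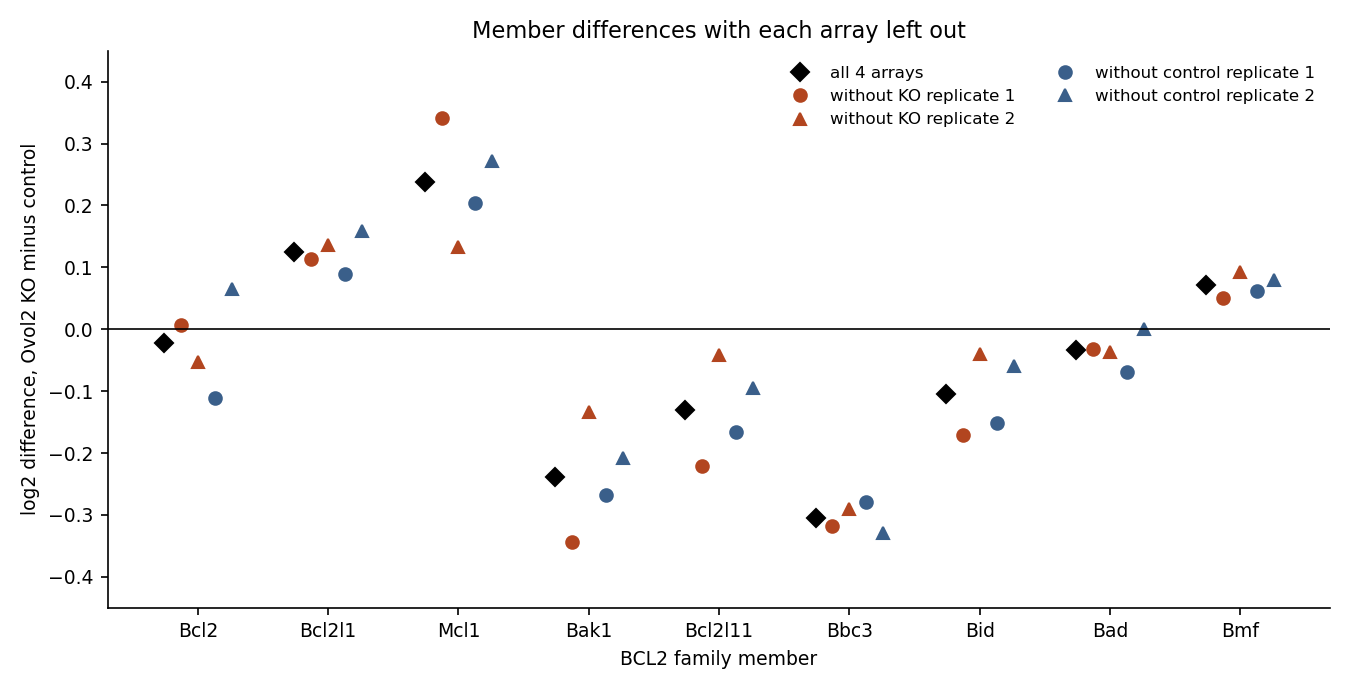
Log2 difference, Ovol2 KO minus control, of the 9 tested members with all 4 arrays (black diamonds), without 1 KO array (red) and without 1 control array (blue). The values of Mcl1 run from 0.13 to 0.34 and those of Bak1 from -0.34 to -0.13, the extremes being set by which KO array is left out, while those of Bbc3 run from -0.33 to -0.28.

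Promoter sequence was set beside the members with the largest differences, because both OVOL and ZEB proteins act at DNA and no binding was measured here. In RefSeq's GRCm38.p6 promoters, the 250 bases before each start were searched on both strands for the OVOL core CCGTTA and for the E-box CACCTG, which ZEB and SNAIL repressors bind. The OVOL core was in 0 of the 17 starts of 9 members and in 2.18% of 32851 starts of all genes. Pmaip1 was left out of the member count by its chromosome, a filter not applied to the starts of all genes. The E-box was in 2 of the 17 starts, 1 of Bad and 1 of Bbc3, against 17.2% of all starts. The windows of Mcl1 (chr3:95658471-95658720, plus strand) and Bak1 (chr17:27028628-27028877, minus strand), the members nearest the threshold, are shown whole and in lower case since neither motif is in them.
Mcl1: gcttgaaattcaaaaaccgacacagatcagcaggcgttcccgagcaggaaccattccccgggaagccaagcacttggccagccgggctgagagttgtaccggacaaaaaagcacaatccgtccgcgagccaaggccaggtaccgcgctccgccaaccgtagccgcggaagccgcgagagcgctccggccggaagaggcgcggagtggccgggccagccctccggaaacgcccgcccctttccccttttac
Bak1: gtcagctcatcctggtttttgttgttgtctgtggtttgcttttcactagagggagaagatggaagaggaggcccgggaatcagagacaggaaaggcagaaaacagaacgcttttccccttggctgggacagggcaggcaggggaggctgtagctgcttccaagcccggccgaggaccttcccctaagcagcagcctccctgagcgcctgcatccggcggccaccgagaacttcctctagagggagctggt
Bbc3 has 3 annotated starts, and 1 of them has the E-box at 226 and again at 193 bases before it. Both matches are shown in 30 bases of context, with the motif or its reverse complement CAGGTG in capitals, at chr7:16310023-16310052 and chr7:16310056-16310085 on the plus strand.
Bbc3 first match: gcgggaaggaagCACCTGggactcagggcg
Bbc3 second match: tgtctgggcgcaCAGGTGccacagcggtct
A match is a description of the letters, and its absence says nothing of the factor.

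The other genes of the family and the machinery around it were read from lists of known members. Of 15 other BCL2 family genes listed, 11 were analysed here and 9 tested, of which 0 rose and 0 fell. The share called over all tested genes was 10.7%. The largest differences were for Bok, a BAK1-like effector (-0.33 ± 0.10, adjusted p = 0.0583), and Bcl2l14 (0.21 ± 0.08, adjusted p = 0.117). Bok was -0.41 without KO replicate 2 and -0.43 without control replicate 2, against -0.25 without KO replicate 1 and -0.23 without control replicate 1. The list median was -0.04, against -0.02 over all tested genes.

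Downstream of the mitochondria, 16 of 19 listed genes of cytochrome c, the caspases and their inhibitors were tested. Of these 0 rose, 2 fell and 14 did not pass, with a median of -0.10. That is 12.5% called, near the 10.7% of all tested genes. Birc5 (survivin), an inhibitor-of-apoptosis protein that acts mainly in cell division, fell by 0.45 ± 0.09 on the log2 scale (limma, adjusted p = 0.0124). Cycs, encoding cytochrome c, fell by 0.20 ± 0.05 (limma, adjusted p = 0.0444), but the mean over all its probe sets differed by -0.05 and did not pass. Cycs has many processed copies in the mouse genome, so its probe sets are uncertain. Without control replicate 1 neither gene passed (Birc5 -0.41, Cycs -0.15), nor did Cycs without KO replicate 2 (-0.16).

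In the death receptor pathway 13 of 17 listed genes were tested, of which 1 rose, 1 fell and 11 did not pass, with a median of -0.13. The called share was 15.4%, against 10.7% of all tested genes. Tnfsf10, encoding the ligand TRAIL, rose by 0.41 ± 0.11 (limma, adjusted p = 0.0456), and Mlkl, the executor of necroptosis, fell by 0.37 ± 0.09 (limma, adjusted p = 0.0346). Neither passed without control replicate 1 (0.34 and -0.32), without control replicate 2 (0.48 and -0.41) or without KO replicate 2 (0.36 and -0.25).

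Among transcription factors known to act on members, 13 of 15 were tested, of which 1 rose, 2 fell and 10 did not pass, with a median of 0.14. The called share was 23.1%, against 10.7% of all tested genes. Stat5a, which carries prolactin signals, rose by 0.56 ± 0.10 (limma, adjusted p = 0.00933). Under a robust variance prior Stat5a did not pass (limma, adjusted p = 0.0852). E2f1, a driver of S phase that can also induce BH3-only genes, fell by 0.37 ± 0.09 (limma, adjusted p = 0.0248), and Trp63, the basal-cell relative of p53, fell by 0.36 ± 0.06 (limma, adjusted p = 0.00864). Without control replicate 1, E2f1 (-0.37) and Trp63 (-0.32) did not pass, and E2f1 did not pass without control replicate 2 (-0.38).

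Of 22 listed genes of survival signalling and of the proteins that bind or degrade members, 18 were tested. Of these 2 rose, 0 fell and 16 did not pass, with a median of 0.04. That is 11.1% called, near the 10.7% of all tested genes. Egfr, a growth factor receptor gene, rose by 0.42 ± 0.08 (limma, adjusted p = 0.0128), and the stress kinase gene Mapk9 rose by 0.22 ± 0.05 (limma, adjusted p = 0.0318). Which cells of the pools carried the Egfr signal was not measured. Without control replicate 1 neither passed (0.35 and 0.20), and Mapk9 did not pass without control replicate 2 (0.23).

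Among these lists, genes for the removal of dead cells held the largest single differences. Of 27 listed, 22 were tested, of which 6 rose, 1 fell and 15 did not pass. That is 31.8% called, against 10.7% of all tested genes. The list median was -0.01, against -0.02 over all tested genes. The median absolute difference was 0.16, against 0.17 for the transcription factor list and 0.11 over all tested genes. Gas6, a bridge between exposed phosphatidylserine and the TAM receptors, had log2 values of 11.61 and 11.70 in KO pools, against 10.84 and 11.03 in control pools. It rose by 0.72 ± 0.07 (limma, adjusted p = 0.000535). Pros1, the other bridging ligand, rose by 0.66 ± 0.11 (limma, adjusted p = 0.00581), and the TAM receptor gene Axl rose by 0.69 ± 0.09 (limma, adjusted p = 0.0017). Outside the naming rule, the other TAM receptor genes had differences of 0.37 for Mertk and -0.10 for Tyro3 and did not pass, and Lrp1 (0.58), Cd36 (0.64) and Mfge8 (0.20), further receptors and a bridge for dead cells, rose. Mertk was 0.50 without KO replicate 2 and passed in the deposited values (0.42). Mfge8 did not pass without KO replicate 1 (0.16) or without control replicate 1 (0.18). Itgb3, an integrin subunit, fell by 0.73 ± 0.15 (limma, adjusted p = 0.0155), a value of -1.02 without KO replicate 1 and -0.44 without KO replicate 2. Under a robust variance prior Itgb3 did not pass (limma, adjusted p = 0.1875). Cd36 stands on the adipocyte list as well. Fibroblast markers, 9 of 9 of which rose, differed between the same pools, and the part of other cells in these values was not tested.

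All 14 listed autophagy genes were tested, since autophagy also occurs in cells of a clearing lumen. Of these 3 rose, 0 fell and 11 did not pass, with a median of 0.07. The called share was 21.4%, against 10.7% of all tested genes. The ATG8-like gene Gabarapl1 rose by 0.27 ± 0.07, the vesicle-trafficking gene Uvrag by 0.26 ± 0.06 and the cargo receptor gene Sqstm1 by 0.21 ± 0.06 (limma, adjusted p = 0.0299, 0.0219 and 0.0445). None of the 3 passed without control replicate 1 (0.24, 0.24 and 0.16) or without KO replicate 2 (0.19, 0.22 and 0.15).

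**Figure D4:**
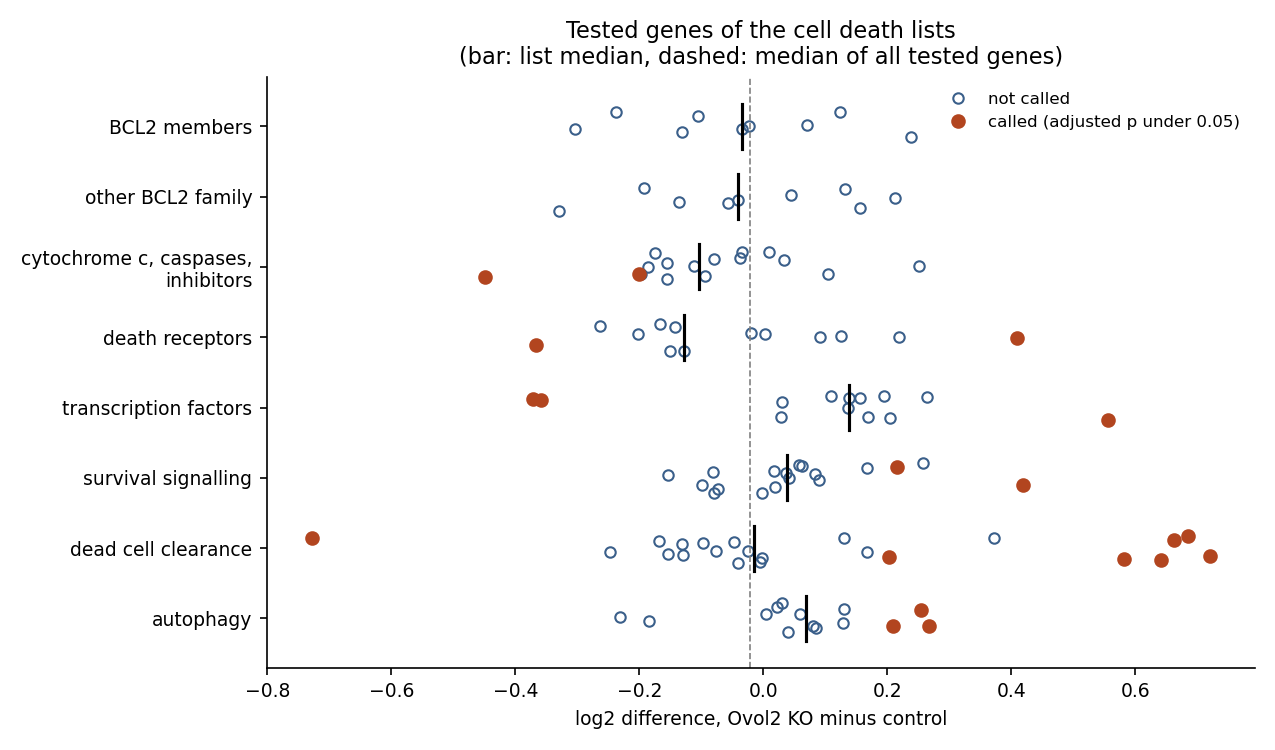
Log2 difference, Ovol2 KO minus control, of each tested gene in the BCL2 family and in 7 lists of cell death genes. Filled points passed an adjusted p of 0.05 in limma, open points did not, bars are list medians, and the dashed line is the median of all tested genes (-0.02). The dead cell clearance list has 7 filled points, from -0.73 for Itgb3 to 0.72 for Gas6, and the BCL2 members have 0.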

How the data were processed

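Terminal end bud RNA was read on 4 single-colour Affymetrix arrays. The deposited table holds linear signal intensities of 35556 probe sets. Affymetrix Expression Console 1.1.1 and PLIER 2.0 are named per the submitters' processing notes, and the background correction, normalization, offset and build were not given in the sources used here. The linear scale was inferred from the range of the values. No detection calls were used, the number of arrays limits the precision, and no sequencing depth applies.

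Probe sets with 1 gene symbol (21789) were named from the platform annotation, and the brightest of a gene was kept. The intensities were taken as log2(signal + 16), quantile normalized over all probe sets, and genes whose mean over the 4 arrays lay under the 40th percentile (7.97) were left out. KO and control arrays were compared with limma 3.58.1 in R 4.3.3 (lmFit and eBayes, variance prior with a trend on the mean, two-sided, Benjamini-Hochberg over 11963 genes, 2 residual and 7.58 prior degrees of freedom). The script was checked on simulated data. The text names all members, Ovol2, in each pathway list at most 4 called genes by size or else the 2 with the largest difference, and up to 2 called genes per cell type list. Some listed genes were not analysed here. The members and lists were chosen with earlier results of these data known. The alternatives covered normalization, pseudocount, filter, probe set rule, variance prior, each array left out and a replicate block.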

Additional observations from a re-analysis of the deposited data

How the results depend on the processing

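The absence of calls among the BCL2 family members depended on the variance model and the normalization, and the sizes of Mcl1 and Bak1 depended on single arrays. With values as deposited 1 member passed (Mcl1, adjusted p = 0.00718), and with a robust prior 2 passed (Mcl1, adjusted p = 0.04, and Bak1, adjusted p = 0.0476). Mcl1 ran from 0.13 to 0.34 and Bak1 from -0.34 to -0.13 with any 1 array left out. Over alternatives with all 4 arrays, the adjusted p in limma ran from 0.000129 to 0.362 for Mcl1 and from 0.00192 to 0.2545 for Bak1. Both kept their direction throughout, and both were lowest with the replicate block. Bbc3 passed in none of its alternatives (limma, adjusted p from 0.0771 to 0.362 with all 4 arrays). Among the named genes, signs turned only for Bcl2 (0.0067 without KO replicate 1, 0.065 without control replicate 2) and Bad (0.010 with deposited values, 0.00058 without control replicate 2). With any 1 array left out, Bcl2 ranged from -0.11 to 0.065 and Bad from -0.069 to 0.00058. The cause of these shifts was not tested.

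Over all genes 753 passed with median centring, 188 with no trend, and 476 to 2347 with any 1 array left out. Several of these fits, including those on values as deposited, with median centring, without a KO array and with the replicate block, took the variance as known from the trend. Same-numbered arrays did not deviate together (r = -0.196 across 11963 genes), so the numbers are not taken to pair the arrays. With the replicate block 2246 genes and 2 members passed, and with the crossed pairing, added after seeing the data, 1203 genes and 0 members passed. Of 19 named pathway genes that passed, 1 (Gas6) still did with no trend, 8 with median centring, 17 with a robust prior and 7 without control replicate 1. With a robust prior Stat5a and Itgb3 did not pass. With no filter Mlkl and Mapk9 did not pass, and with the filter at the 60th percentile Sqstm1 did not. No detection calls were used, so whether Pmaip1 lay above background was not measured.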
